A study of Mus musculus with 9 samples.

Results

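The comparison of C2TA knockdown with wild type in medullary thymic epithelial cells covers 6 of the 9 arrays of the series, 3 per group, and 19593 genes named on the array, of which 19567 lie outside the MHC class II list and the list of Aire and its neighbours. It takes all genes with a symbol and selects none for its value. The cells were CD80+ medullary thymic epithelial cells from the thymus of female Balb/c mice aged 4 to 6 weeks, and the genotypes are C2TA wild type in 1 group, C2TA knockdown in another and, in the remaining 3 arrays, C2TA knock-out (used here for the shared estimate of spread and for values side by side). The labels call the arrays of a group biological replicates without naming the animals behind each, so p-values measure only the spread between these samples. The labels do not give the construct of the knockdown. In the published mouse line, as known from general knowledge and not checked here, a hairpin RNA against C2TA is expressed from a transgene made of a stretch of genome around Aire. If the knockdown arrays come from that line, silencing depends on cells that use the Aire promoter, and the effects of the transgene and of the silencing cannot be told apart here.

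C2TA, encoded by Ciita, is a coactivator that does not bind DNA itself. It docks on a complex of RFX and NF-Y factors at the X and Y boxes of MHC class II promoters and switches these genes on. Medullary thymic epithelial cells present class II molecules to developing T cells, express Aire, and display genes of many other tissues, from skin keratins to gut and liver proteins. Mature cells of the medulla include keratinocyte-like, tuft-like, enterocyte-like and endocrine-like states, which is why gene lists of those tissues are used below.

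The epithelial marker Epcam and the sort marker Cd80 were read on the arrays, and neither measures how pure the samples were. Markers of other cells are given further below. On a log2 scale, made with the array normalization RMA, Epcam, the epithelial adhesion molecule, lay at 8.73, 9.36 and 9.11 on wild type 1 to 3 and at 9.15, 8.92 and 9.03 on knockdown 4 to 6. Cd80, the surface protein used for the sort, lay at 6.99, 8.08 and 7.73 in wild type and at 7.29, 7.07 and 7.29 in the knockdown. The groups overlapped for both genes. Over all genes, the interquartile range of an array was 2.20 on wild type 1. It was 2.53 to 2.80 on the other 5 arrays of the comparison, so wild type 1 stood apart. Values without wild type 1 are given beside many of the results that it moves, but not beside all. Ciita itself lay at 6.37, 6.55 and 6.28 in wild type and at 5.44, 4.94 and 5.50 in the knockdown. All knockdown arrays were below all wild-type arrays, a change of -1.11 (SE 0.16, 2.16-fold lower), and the gene missed the threshold with an adjusted p of 0.055 in limma.

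Outside class II and the surroundings of Aire, the named genes that rose in the knockdown were Krt1, Krt79, Rdh9 and Teddm3. Krt1 and Krt79 are keratins of stratified epithelium, Rdh9 belongs to the retinol dehydrogenases, and Teddm3 encodes a membrane protein of the epididymal family. Their changes lay between 0.97 and 1.77 on the log2 scale. Teddm3 was measured at a low level, given further below. In all, 13 of 19593 genes (0.0664%) passed an adjusted p of 0.05 (limma, Benjamini-Hochberg over all genes) and are referred to as called. Of them, 9 were higher (0.0459%) and 4 lower (0.0204%). A subset of 5 lay outside both reference lists, 4 higher and 1 lower. Among the other 8, the class II chaperone subunits H2-Oa, H2-DMa and H2-DMb2 fell, and Pfkl, Pwp2, Gatd3a, Aire and Cfap410 rose.

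The called genes stand out from a narrow distribution. The change of 95% of all genes lay between -0.39 and 0.40 on the log2 scale, the median was 0.01, and 52.4% of genes had a higher mean in the knockdown. A change above 1 in size was measured for 32 genes, 14 higher and 18 lower. Wild-type and knockdown arrays were free of overlap for 1617 genes (8.25%), 940 higher (4.80%) and 677 lower (3.46%), and counts of list members without overlap are read against these shares. An unadjusted p under 0.05 was reached by 1026 genes (5.24%). Without wild type 1 the count of calls was 48 (0.245%), of which 36 were lower, the same 13 genes were among them, and 35 lay outside both reference lists. It was 5 without knockdown 6 and 2 when only the arrays of both groups were fitted.

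**Figure D1:**
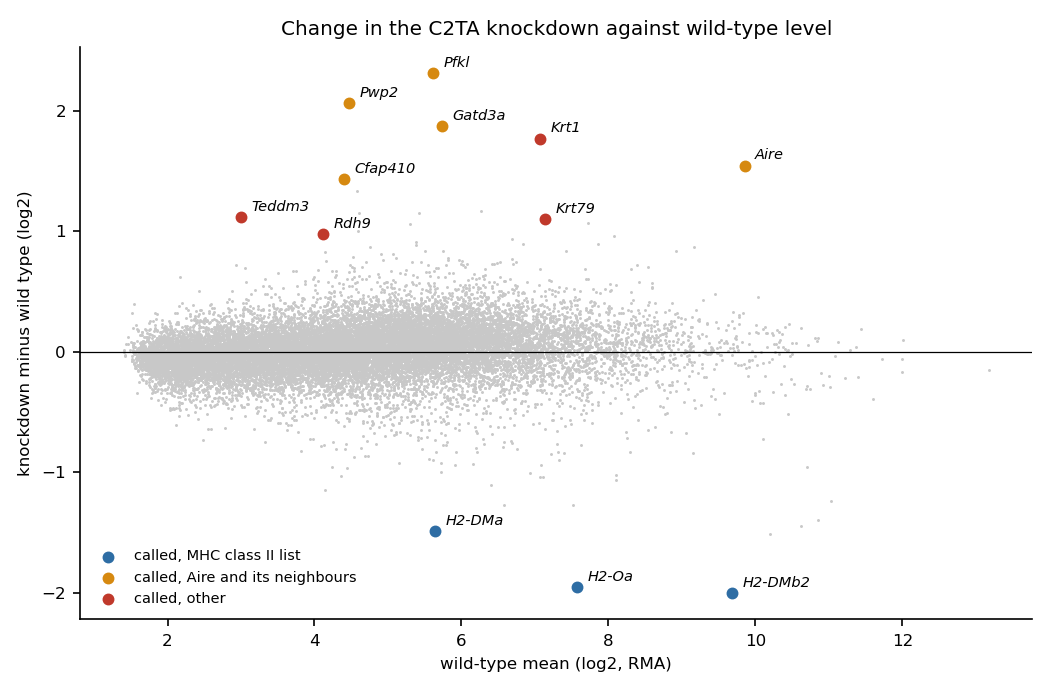
Change in the knockdown (log2, knockdown minus wild type) against the wild-type mean (log2) for each gene reported here. Coloured points are genes called by limma. Krt1, Krt79, Rdh9 and Teddm3 lie above most grey points, as do Aire and its called neighbours, and 3 called class II genes lie below most. Some grey points lie as far out as coloured ones, among them Lgals7 at 1.17 and H2-Ab1 at -1.51.

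The promoters of Krt79, Rdh9 and Teddm3, 3 genes called outside the reference lists, are printed with those of H2-DMb2 and H2-Oa, 2 called class II genes, so that the letters known from class II promoters can be compared. The sequences are from RefSeq on build GRCm38.p6, 5′ to 3′ on the strand of the gene, and run from 250 bases before the start to 50 after it, 300 bases in all. Capitals mark the Y box letters ATTGG or their complement CCAAT. The windows are chr15:101940275-101940574 on the minus strand for Krt79, chr10:127776155-127776454 on the plus strand for Rdh9, chr16:21153895-21154194 on the minus strand for Teddm3, chr17:34144999-34145298 on the plus strand for H2-DMb2 and chr17:34092129-34092428 on the plus strand for H2-Oa.
Krt79: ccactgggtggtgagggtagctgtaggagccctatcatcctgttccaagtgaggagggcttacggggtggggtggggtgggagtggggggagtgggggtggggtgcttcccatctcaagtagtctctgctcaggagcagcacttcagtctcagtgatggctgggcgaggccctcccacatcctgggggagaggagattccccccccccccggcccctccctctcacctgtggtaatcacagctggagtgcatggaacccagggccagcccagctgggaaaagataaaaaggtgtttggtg
Rdh9: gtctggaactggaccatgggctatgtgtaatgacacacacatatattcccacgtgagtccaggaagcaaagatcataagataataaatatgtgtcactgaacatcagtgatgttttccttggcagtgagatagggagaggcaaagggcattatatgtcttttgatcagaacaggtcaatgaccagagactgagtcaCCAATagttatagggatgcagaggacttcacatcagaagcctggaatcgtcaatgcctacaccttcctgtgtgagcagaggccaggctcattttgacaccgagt
Teddm3: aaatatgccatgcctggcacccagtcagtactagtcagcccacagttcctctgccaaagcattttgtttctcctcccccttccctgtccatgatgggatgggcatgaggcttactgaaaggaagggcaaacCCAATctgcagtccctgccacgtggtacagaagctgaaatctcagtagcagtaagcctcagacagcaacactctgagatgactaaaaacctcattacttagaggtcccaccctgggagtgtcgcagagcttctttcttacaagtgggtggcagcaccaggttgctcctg
H2-DMb2: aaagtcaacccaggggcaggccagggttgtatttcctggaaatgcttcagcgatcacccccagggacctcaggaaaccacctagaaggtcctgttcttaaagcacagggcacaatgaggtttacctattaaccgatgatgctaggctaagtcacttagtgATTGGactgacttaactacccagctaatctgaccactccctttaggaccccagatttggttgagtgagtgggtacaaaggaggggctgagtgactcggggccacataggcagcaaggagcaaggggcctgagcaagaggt
H2-Oa: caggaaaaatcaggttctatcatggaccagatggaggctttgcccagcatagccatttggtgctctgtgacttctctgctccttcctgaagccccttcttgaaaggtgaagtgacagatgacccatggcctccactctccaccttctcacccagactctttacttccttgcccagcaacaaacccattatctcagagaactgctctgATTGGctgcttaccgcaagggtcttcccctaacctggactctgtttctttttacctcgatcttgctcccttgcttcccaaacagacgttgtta

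The Krt79 window held neither spelling of the Y box letters. Each of the other 4 windows held 1 match, which began at -54 from the start in Rdh9, at -119 in Teddm3, at -90 in H2-DMb2 and at -43 in H2-Oa. On either strand, ATTGG occurred in 37.4% of 32851 promoters in the table, in 42.0% of 14346 array genes with a promoter, and in 8 of the 11 named called genes that have one. A longer spelling of the X box occurred in 64 promoters (0.195%) and in 0 of those 11 genes. A match is a description of sequence, not a binding site.

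Keratins form the intermediate filaments of epithelium, and 2 of them were called. Krt1, which pairs with Krt10 in the suprabasal epidermis, lay at 6.83, 7.15 and 7.23 on the wild-type arrays and at 9.02, 8.62 and 8.88 on the knockdown arrays. Every knockdown array was above every wild-type array. Krt1 rose by 1.77 (SE 0.17, 3.40-fold) with a limma adjusted p of 0.00398. Krt79, expressed in upper hair follicle and sebaceous duct, lay at 6.98, 7.27 and 7.16 in wild type and at 8.26, 8.19 and 8.28 in the knockdown. The groups did not overlap, and Krt79 rose by 1.10 (SE 0.11, 2.15-fold) with a limma adjusted p of 0.00398. Both genes missed the threshold without knockdown 6 (adjusted p of 0.0505 in limma) and when only the arrays of both groups were fitted (adjusted p of 0.0699 in limma).

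Of 48 measured keratins, 2 were called higher and 0 lower, and 27 had higher means. In 11 keratins all knockdown arrays lay above wild type, against 4.80% of all genes, and in 1 all lay below. The median change of 0.04 stood beside 0.01 over all genes for the family. Krt10 lay at 8.85, 9.27 and 9.37 in wild type and at 10.12, 9.97 and 9.99 in the knockdown, a change of 0.87 (adjusted p of 0.186 in limma). Krt6b, a keratin of activated epithelium, lay at 4.51, 4.55 and 4.55 against 5.21, 5.29 and 5.20, a change of 0.70 (adjusted p of 0.055 in limma, 0.0451 without wild type 1). Krt84, a keratin of nail and tongue, had 0.88 (0.68 without wild type 1), and Krt16 had 0.42, both without overlap and not called.

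The simple-epithelium keratins and the basal keratins were measured as well. Krt8 lay at 9.77, 10.61 and 10.29 in wild type and at 10.12, 10.24 and 10.14 in the knockdown, with overlap. Its partner Krt18 had a change of -0.13 (-0.21 without wild type 1). Krt14, of the basal layer, had 0.21 (0.07 without wild type 1), with overlap. Its partner Krt5 had 0.58 (SE 0.18, 0.44 without wild type 1) and no overlap. Krt17 had 0.29 (0.17 without wild type 1) and Krt19 had 0.31, both also above wild type on all knockdown arrays. Krt8, Krt18, Krt14, Krt5, Krt17 and Krt19 did not pass the test.

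Genes of the cornified envelope, the cross-linked shell of the outermost keratinocytes, had a median change of 0.14, unchanged to 2 decimals without wild type 1. Of 46 measured, 0 were called, 33 had higher means, 14 lay above wild type on all knockdown arrays and 2 below, against 4.80% and 3.46% of all genes. Dmkn, or dermokine, lay at 7.99, 8.42 and 8.51 in wild type and at 9.03, 8.98 and 8.96 in the knockdown. Its change was 0.68 (SE 0.14, 0.53 without wild type 1). Tgm3, a transglutaminase that cross-links the envelope, had 0.51 (SE 0.11). Krtdap had 0.72 (0.60 without wild type 1), Sprr2a 0.84 (0.52 without it) and Lce1b 0.62 (0.45 without it), all with no overlap. The list was not uniform, since Sprr3, a small proline-rich protein, had -0.65 and Lce3c had -0.58 with all knockdown arrays below wild type.

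Desmosomes rivet keratin filaments of neighbouring cells together. The 17 measured desmosomal genes had a median change of 0.21 (0.24 without wild type 1), with 14 higher means, 0 called, and 7 genes without overlap above wild type and 1 below, against 4.80% and 3.46% of all genes. Dsc1, a desmocollin of the upper epidermis, lay at 4.83, 5.64 and 5.44 in wild type and at 6.58, 5.86 and 6.65 in the knockdown. Its change was 1.06 (SE 0.32, 0.82 without wild type 1). Dsg3 had 0.57 (SE 0.16, 0.39 without wild type 1), Perp 0.52 (0.31 without wild type 1), Dsp 0.40 and Jup 0.36 (0.45 without wild type 1). Dsg2, the desmoglein of simple epithelium, had -0.26 with all knockdown arrays below wild type. Trp63, the transcription factor of stratified epithelium, had 0.40 (SE 0.14), and Hnf4g, a nuclear receptor of gut epithelium, had -0.54 (SE 0.22). Of 25 measured transcription factors of thymic epithelium, 0 were called and the median change was 0.05 (0.02 without wild type 1).

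Lgals7, Calm4, Stfa3 and Aadacl2 are named for a small p-value or a large change, and none of them was called. Lgals7, or galectin-7, lay at 5.98, 6.45 and 6.36 in wild type and at 7.67, 7.16 and 7.45 in the knockdown, a change of 1.17 (SE 0.17, adjusted p of 0.055 in limma). Calm4, a calmodulin-like protein of epidermis, lay at 6.51, 6.81 and 6.78 against 7.43, 7.29 and 7.55, a change of 0.73. Stfa3, a stefin that inhibits cysteine proteases, had 1.15 (0.78 without wild type 1), and the lipase-like gene Aadacl2 had 1.15 (0.78 without wild type 1).

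**Figure D2:**
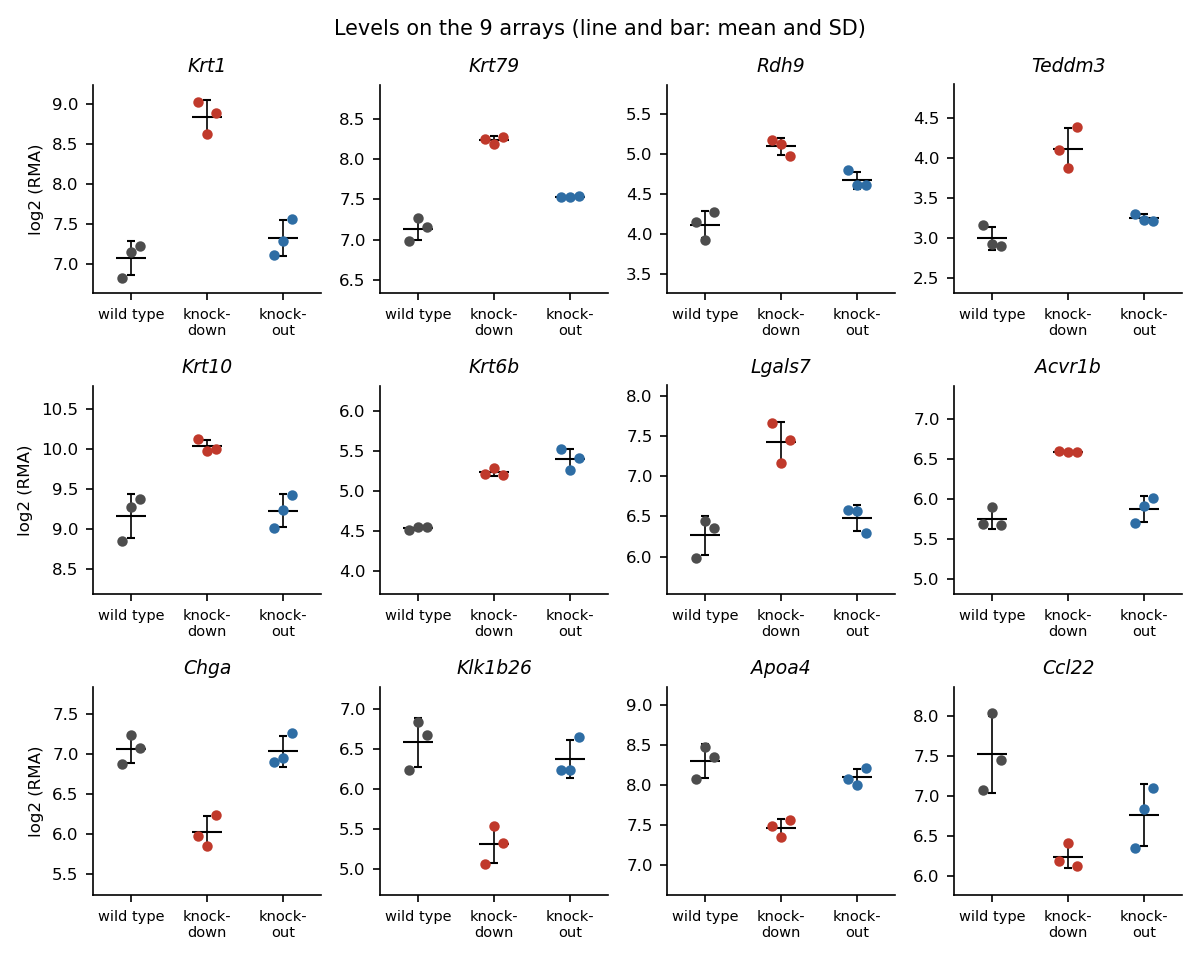
Log2 levels of 12 genes on the 9 arrays. Points are arrays, and lines with bars are means with SD (n = 3 per group). The knockdown points lie above wild type for the first 8 genes and below for Chga, Klk1b26, Apoa4 and Ccl22. The knockout points of Krt1 and Chga lie near wild type, while those of Krt6b lie with the knockdown.

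Rdh9 and Rdh1, which lie side by side on chromosome 10, are short-chain dehydrogenases that act on retinol and steroids. Rdh9 lay at 4.15, 3.93 and 4.27 in wild type and at 5.18, 5.13 and 4.97 in the knockdown. The groups did not overlap, and Rdh9 rose by 0.97 (SE 0.12, 1.97-fold) with a limma adjusted p of 0.0268, which lay between 0.0527 and 0.222 when any array except wild type 1 was left out. Rdh1, beside it, had 0.59 (SE 0.23). Of 43 measured genes of retinol and retinal metabolism, 1 was called, 28 had higher means and the median change was 0.06. On all knockdown arrays 7 lay above wild type and 1 below, beside 4.80% and 3.46% of all genes. Rbp2, a retinol-binding protein of intestine, had 0.46, and Rdh12, a retinal reductase, had 0.45.

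Teddm3, named 2310042E22Rik on the array, lay at 3.16, 2.92 and 2.90 in wild type and at 4.09, 3.87 and 4.38 in the knockdown. These levels are low. The wild-type mean of 3.00 was among the 4899 lowest of all genes. Each knockdown value also lay below the median of its array over all genes, which was 4.51 to 4.53. Teddm3 rose by 1.12 (SE 0.14, 2.17-fold) with a limma adjusted p of 0.0275, and the call was lost without any 1 of 7 arrays. Among genes not called, Acvr1b, an activin receptor, lay at 5.69, 5.90 and 5.67 against 6.60, 6.58 and 6.58, a change of 0.83 (adjusted p of 0.055 in limma, 0.0468 without wild type 1). Ano7 (Tmem16g on the array), an anoctamin of prostate, lay at 5.96, 5.91 and 6.05 against 6.79, 6.63 and 6.78, a change of 0.76 (adjusted p of 0.055 in limma, 0.0404 without wild type 1). Them5, a thioesterase of fatty acyl groups, had 1.34, Mgat5b, a glycosyltransferase, had 0.63, and Phlda3, an inhibitor of Akt signalling, had 0.73. Tuft cell genes had a median of 0.13, which was 0.02 without wild type 1, and 0 of 18 were called. Dclk1, a kinase of tuft cells, had 0.52 (0.34 without wild type 1), and the taste G protein subunit Gnb3 had 0.32 (0.18 without wild type 1).

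Knockdown by a hairpin RNA, as in the published line, uses the machinery of RNA interference, and double-stranded RNA can trigger interferon, so genes of both were read. The 19 measured genes of RNA interference had a median change of 0.06 (-0.02 without wild type 1), and 0 were called or free of overlap. Ddx17, a helicase of microRNA processing, had 0.32 and its relative Ddx5 had 0.22, and these were 0.05 and -0.06 without wild type 1. Sensors of double-stranded RNA had a median of 0.19 (0.12 without wild type 1), and 0.06 in the knockout against wild type. Of the 19 measured, 0 were called. On all knockdown arrays 7 lay above wild type and 1 below, beside 4.80% and 3.46% of all genes. Oas2, which answers double-stranded RNA by activating an RNase, lay at 4.31, 4.38 and 4.49 against 5.18, 4.67 and 5.01, a change of 0.56 (SE 0.15), and Oasl1 had -0.44.

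Among 48 measured interferon response genes, 10 lay above wild type without overlap and 2 below, beside 4.80% and 3.46% of all genes. They had 0 calls and a median of 0.10 (0.03 without wild type 1), and a median of 0.20 in the knockout against wild type. A link of these values to a hairpin RNA was not tested. Ifitm1, a membrane protein that restricts viral entry, lay at 7.70, 7.76 and 7.73 in wild type and at 8.91, 8.83 and 8.65 in the knockdown, a change of 1.07 (SE 0.17, adjusted p of 0.0683 in limma). On the knockout arrays Ifitm1 lay at 8.24, 8.10 and 8.76, a change of 0.64 against wild type. Its neighbours Ifitm2 and Ifitm3 had 0.33 and 0.45 in the knockdown. Since these copies are alike in sequence their values are uncertain as to the gene. Bst2, or tetherin, had 0.53, and Ifit3 had 0.87 (0.60 without wild type 1).

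In the opposite direction, apolipoproteins, which carry lipid in plasma and are made by liver and gut, stood lowest in median among the lists outside class II. The 19 measured members had a median change of -0.49 (-0.51 without wild type 1). Of these, 16 had lower means, 7 lay below wild type on all knockdown arrays, against 3.46% of all genes, and 0 were called. Apoa4, an apolipoprotein of intestine that is known to depend on Aire, lay at 8.07, 8.48 and 8.35 in wild type and at 7.49, 7.35 and 7.56 in the knockdown, a change of -0.84 (adjusted p of 0.0683 in limma, 0.0168 without wild type 1). Apod, of brain and glands, lay at 7.20, 7.47 and 7.01 against 6.35, 6.26 and 6.51, a change of -0.85. Apoc3 had -0.94, Apob -0.81 and Apoa1 -0.74.

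Enterocyte genes, a list that shares Apoa1, Apoa4 and Apob with the apolipoproteins, had a median of -0.12 (-0.22 without wild type 1). Of 30 measured, 0 were called, and 9 lay below wild type without overlap and 2 above, against 3.46% and 4.80% of all genes. Fabp1, the fatty acid-binding protein of gut and liver, lay at 3.58, 4.19 and 4.64 against 2.80, 3.38 and 2.79. Its change was -1.15 (SE 0.28, -1.43 without wild type 1). Cdh17, a cadherin of intestine, lay at 6.71, 7.37 and 7.23 against 6.08, 5.91 and 6.20, a change of -1.04 (SE 0.21). Sis, or sucrase-isomaltase, had -0.96. Slc5a1, the glucose transporter of gut, went the other way with 0.74 and no overlap. The mucin Muc3 lay at 5.43, 5.72 and 5.46 against 4.96, 4.82 and 4.69, a change of -0.71.

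Liver plasma proteins, a list that shares Apoa1, Apoa2, Apoc3 and Apoh with the apolipoproteins, had a median of -0.17 (-0.15 without wild type 1). Of its 28 measured genes, 22 had lower means, 8 lay below wild type without overlap, beside 3.46% of all genes, and 0 were called. Its smallest p-values were those of Apoc3 and Apoa1, given above. Outside the list, Pck1, the enzyme of glucose synthesis in liver, lay at 5.80, 5.96 and 5.65 against 4.90, 4.97 and 5.29, a change of -0.75. Ptgds, a prostaglandin synthase and also no member, had -0.77. H19, an imprinted RNA of fetal liver and muscle and no member either, lay at 5.94, 6.14 and 6.19 against 5.41, 5.56 and 5.52, a change of -0.59 (adjusted p of 0.196 in limma, 0.0425 without wild type 1).

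Neuroendocrine genes had 24 of 29 lower means and a median of -0.17 (-0.20 without wild type 1). Chromogranin A (Chga), the core protein of endocrine granules, lay at 6.88, 7.24 and 7.07 in wild type and at 5.98, 5.85 and 6.24 in the knockdown. The groups did not overlap, and the change of -1.04 (SE 0.15, 2.06-fold lower) had an adjusted p of 0.055 in limma, and 0.0315 without wild type 1. Pyy, a gut peptide hormone, had -0.56. In all, 4 members lay below wild type without overlap and 1 above, beside 3.46% and 4.80% of all genes, and 0 were called. Outside the list, Uts2b (Uts2d on the array), a urotensin peptide, lay at 3.95, 4.69 and 4.45 against 3.23, 3.40 and 3.34, a change of -1.04 (adjusted p of 0.101 in limma, 0.00308 without wild type 1).

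Kallikreins are secreted serine proteases, and the mouse Klk1b cluster is expressed in salivary gland. The 26 measured kallikreins had a median of -0.29 (-0.40 without wild type 1), with 0 called. Without overlap, 7 lay below wild type and 3 above, beside 3.46% and 4.80% of all genes. Klk1b26 lay at 6.24, 6.83 and 6.68 against 5.07, 5.54 and 5.33, a change of -1.27 (adjusted p of 0.0627 in limma, 0.019 without wild type 1). Klk1b22 had -0.99 and Klk1b16 -0.81. Klk1b genes are near-identical copies, so these values are uncertain as to the gene and may not be separate observations. Klk13 and Klk11, of stratified epithelium, had 0.76 and 0.35, both without overlap above wild type.

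Aire rose by 1.54 (SE 0.14) on these arrays. Of the listed Aire-dependent antigens 0 were called, beside 0.0664% of all genes, so the absence of calls says little about them. Of the 25 measured, 9 had higher means and 16 lower. Without overlap, 3 lay below wild type and 0 above, beside 3.46% and 4.80% of all genes. Their median was -0.14 (-0.25 without wild type 1). Fabp9, a fatty acid-binding protein of testis, lay at 6.65, 7.75 and 7.57 against 6.37, 6.23 and 6.66, a change of -0.90 (adjusted p of 0.555 in limma, 0.0318 without wild type 1). Apoa4, above, is also on this list.

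**Figure D3:**
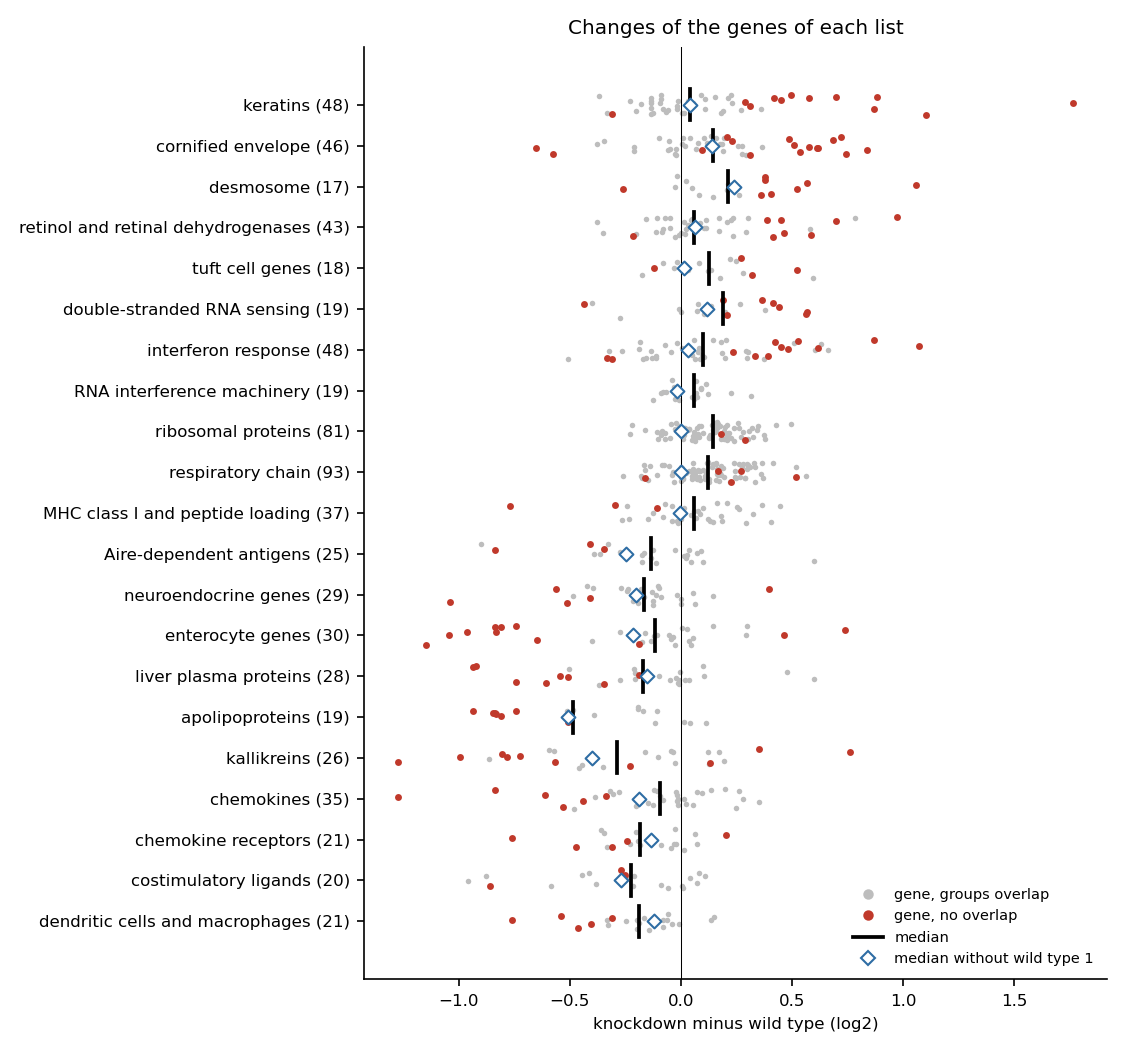
Changes in the knockdown (log2, knockdown minus wild type) of the genes in 21 lists, with the number measured in parentheses. Red points are genes whose arrays did not overlap between the groups, black lines are medians and open diamonds are medians without wild type 1. Red points of the keratin, cornified and desmosome lists lie mostly on the right, those of the apolipoprotein list on the left, and the diamonds of the ribosomal and respiratory lists move to 0.

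Chemokines, chemokine receptors, costimulatory ligands and interleukins with their receptors had medians below 0, and TNF ligands and receptors had one of -0.02 (-0.05 without wild type 1). The 35 measured chemokines had a median of -0.09 (-0.19 without wild type 1), with 0 called. Of them, 6 lay below wild type without overlap and 0 above, beside 3.46% and 4.80% of all genes. Ccl22, a chemokine that attracts cells bearing CCR4, lay at 7.08, 8.03 and 7.45 against 6.20, 6.41 and 6.13. Its change was -1.27 (SE 0.25, -1.49 without wild type 1). Ccl6 had -0.53 (SE 0.11). Chemokine receptors had a median of -0.19, with 17 of 21 lower means and 0 called. Without overlap, 4 receptors lay below wild type and 1 above, against the same shares of all genes. Ccr7, which guides cells to the medulla, lay at 6.35, 6.92 and 6.81 against 5.73, 5.98 and 6.10, a change of -0.76 (SE 0.22), and Ccr3 had -0.47.

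Costimulatory ligands had a median of -0.23 (-0.27 without wild type 1), with 14 of 20 lower means and 0 called. Of them, 3 lay below wild type without overlap, beside 3.46% of all genes. Btnl2, a butyrophilin-like protein that restrains T cells, lay at 4.34, 4.99 and 4.73 against 3.93, 3.83 and 3.70, a change of -0.86 (adjusted p of 0.223 in limma, 0.0253 without wild type 1). Tnfsf9, the ligand of 4-1BB, had -0.88 with overlap. Interleukins and their receptors had a median of -0.11, with 53 of 80 lower means and 0 called. Without overlap, 11 lay below wild type and 5 above, beside 3.46% and 4.80% of all genes. Il12a, a subunit of interleukin-12, lay at 5.63, 5.97 and 5.35 against 4.94, 4.92 and 4.59, a change of -0.83 (SE 0.17). Il3, a growth factor of blood cells, had -0.48.

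Markers of dendritic cells and macrophages, which carry class II and many of these signals, also had a median below 0. Of 21 measured, 5 lay below wild type without overlap and 0 above, beside 3.46% and 4.80% of all genes. The 21 markers had 19 lower means, 0 called and a median of -0.19 (-0.12 without wild type 1). Their mean log2 level per array was 5.13, 5.15 and 5.17 in wild type and 4.89, 4.91 and 5.03 in the knockdown. Fcer1g, a signalling chain of Fc receptors, had -0.54. Ccr7, above, had the most negative change both here and among the chemokine receptors, so these lists are not fully separate. Itgax, which encodes CD11c, lay at 3.77, 3.41 and 3.41 against 3.18, 3.18 and 3.03. Other members of the list were far brighter. Laptm5 had a mean of 9.90 in wild type and 9.71 in the knockdown, Lyz2 8.49 and 8.30, and Cybb 7.59 and 7.26. None of the defining markers was at 0, a level that this log2 scale does not reach on these arrays. In bulk samples, fewer cells of a type and less RNA per cell cannot be told apart, and the part of these markers in the lower class II, chemokine and cytokine values was not tested. Epx, a peroxidase of eosinophils, lay at 4.58, 4.88 and 5.05 against 4.19, 3.91 and 4.12, a change of -0.76 (adjusted p of 0.178 in limma, 0.0253 without wild type 1).

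Markers of other cells were read as well. Thymocyte markers had a median of -0.04 (0.00 without wild type 1), with Cd4 at -0.24 and Trat1 at 0.19, B cell markers -0.02, endothelial markers -0.02, erythroid markers 0.00 (-0.11 without wild type 1) and markers of fibroblasts and pericytes -0.10, with Dcn at -0.81 (overlapping) and Pdgfrb at -0.32. No gene of these lists was called, beside 0.0664% of all genes. The marker list of medullary epithelium had a median of -0.07 (-0.21 without wild type 1), with Aire as its called member, and cortical epithelial markers had -0.13 (-0.14 without wild type 1), with the Notch ligand Dll4 at -0.37 and Ly75 at -0.51.

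Among genes of MHC class I, C2TA partner factors and the proteasome 0 were called, beside 0.0664% of all genes. The absence of calls therefore says little about them. The 37 measured genes of MHC class I and peptide loading had a median of 0.06 (-0.01 without wild type 1). Without overlap, 3 lay below wild type and 0 above, beside 3.46% and 4.80% of all genes. H2-M2, a class I-like molecule, lay at 7.22, 7.82 and 7.82 against 6.98, 6.71 and 6.86. Its change was -0.77 (SE 0.19, -0.97 without wild type 1), and H2-K2 had -0.30. The list of partner factors of C2TA, which also holds Ciita itself, had a median of 0.10 (0.00 without wild type 1). In it Rfx5, a subunit of the RFX complex, had -0.38 (SE 0.16) without overlap. Proteasome genes had 38 of 48 higher means and a median of 0.10, which was -0.08 without wild type 1, with Psmb6 at 0.51 and Psmc3 at 0.29, which were 0.14 and 0.10 without wild type 1.

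The medians of household genes shifted with wild type 1. Ribosomal proteins had 65 of 81 higher means and a median of 0.14, and respiratory chain genes had 75 of 93 and 0.12, while both medians were 0.00 without wild type 1 and 0 were called. Rps14 had 0.29 and Ndufb11 had 0.52, which were 0.15 and 0.27 without wild type 1, and Rps21 had 0.30 (0.13 without wild type 1) and Uqcrq 0.27. Glycolysis had a median of 0.00 (-0.16 without wild type 1), with Pfkl, the neighbour of Aire, as its called member. Receptor families that are mostly silent in thymus went the other way with wild type 1. The 1083 measured olfactory receptors had a median of -0.05, which was 0.06 without it, and 199 vomeronasal receptors had -0.06, which was 0.05 without it. None of these receptors was called, beside 0.0664% of all genes. Olfr1136 lay at 3.35, 3.52 and 3.10 against 2.71, 2.58 and 2.44, a change of -0.75 (adjusted p of 0.122 in limma), and Olfr761 had 0.36.

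The same shift with wild type 1 was seen across levels of all genes. Among the 4899 genes with the lowest wild-type means, 1.88% lay above wild type without overlap and 1.92% below, and the median change was -0.04 (0.04 without wild type 1). Among the 4898 genes with the highest means these shares were 6.72% and 4.31%, and the median was 0.06 (-0.09 without wild type 1). A further 21 lists, among them mucins, cytochrome P450 genes, solute carriers, histones, cell cycle and heat shock genes, hold 1135 genes, of which 0 were called. Their medians lay between -0.13 and 0.12 (-0.19 to 0.09 without wild type 1), and 9.78% of their genes did not overlap, 76 above and 35 below wild type, beside 8.25% of all genes.

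Genes that lie side by side separated the groups together in 14 stretches. A stretch here is at least 3 measured genes next to each other among 18410 placed in order, each with all knockdown arrays on the same side of wild type. There were 8 stretches above wild type and 6 below, and 12 of them lay outside both reference lists. Over all genes, 4.80% lay above wild type without overlap and 3.46% below. The shared direction within a stretch follows from its definition, and how many stretches would arise by chance was not tested. The longest, with 7 genes, ran from H2-Ab1 through H2-Aa, H2-Eb1 and H2-Ea into the butyrophilin-like genes Btnl2 and Btnl1 and BC051142. Btnl1 had -0.80 (SE 0.17) and BC051142 -0.65 (SE 0.21, -0.91 without wild type 1), both outside the class II list.

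Several stretches were families named above. Apoa1, Apoc3 and Apoa4 lie side by side, as do Sbsn, Dmkn and Krtdap, with changes of 0.49, 0.68 and 0.72. Ifitm2, Ifitm1 and Ifitm3 form another, and so do Klk1b8, Klk1b1 and Klk1b9, with -0.78, -0.57 and -0.72. Rdh9 followed Gpr182 and Rdh1, with 0.44 for Gpr182, a receptor of lymphatic endothelium. Csf2 and Il3, cytokines of myeloid growth, stood beside P4ha2 with -0.90, -0.48 and -0.23, and Ly6d, a surface protein of keratinocytes, had 0.53 between Lynx1 with 0.14 and Ly6k with 0.35. The remaining 5 stretches held 3 genes each, with changes no larger in size than 0.58, the value of the zinc transporter gene Slc39a1 (0.17 without wild type 1).

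**Figure D4:**
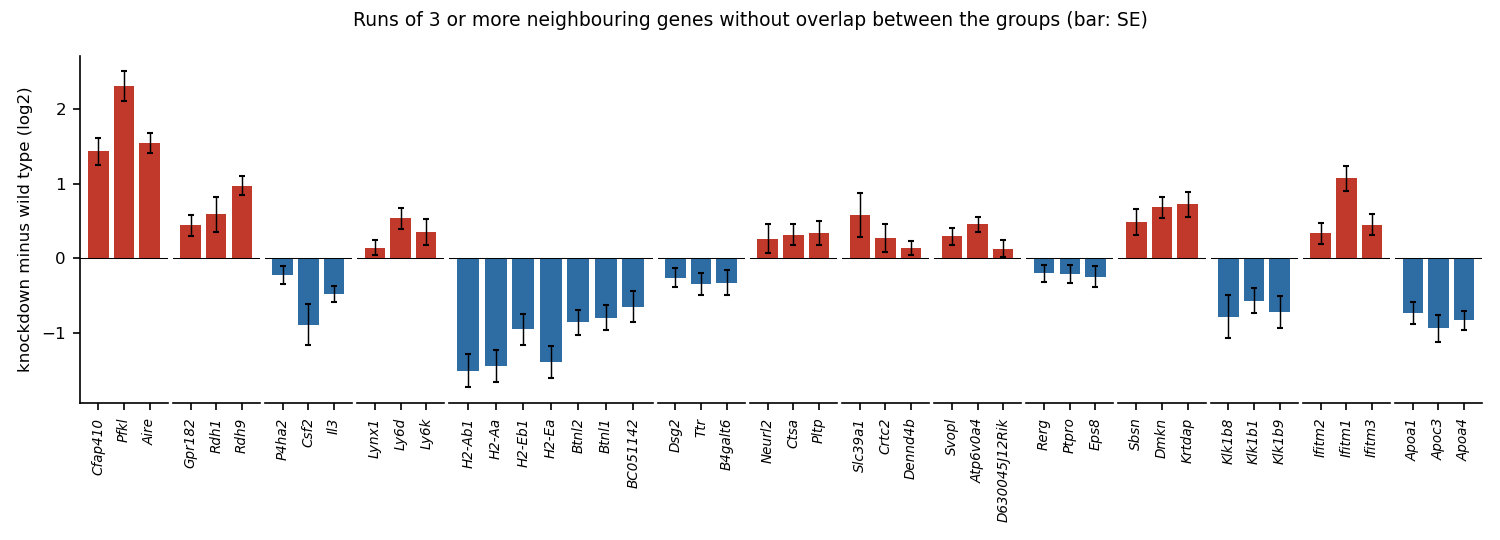
Changes (log2, knockdown minus wild type) of the genes in the 14 stretches of neighbouring genes. Bars are estimates and error bars are SE. The stretch of Cfap410, Pfkl and Aire is highest. The 7 genes from H2-Ab1 to BC051142 are all below 0, and a shared direction is part of the definition of a stretch.

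The C2TA knockout arrays were set beside the called genes, and the knockdown arrays are shared by both comparisons. Knockdown against knockout called 8 of 19593 genes (0.0408%), and knockout against wild type called 9 (0.0459%). Krt1 lay at 7.11, 7.29 and 7.57 in the knockout, and the knockdown was 1.52 higher (SE 0.17, adjusted p of 0.0132 in limma). Without knockdown 4, knockdown 6, knockout 7 or knockout 8 this adjusted p lay between 0.0589 and 0.148. Krt79 lay at 7.53, 7.53 and 7.54 in the knockout, between the other groups, and the difference of 0.71 had an adjusted p of 0.0896 in limma (0.022 without wild type 1). Rdh9 lay at 4.79, 4.61 and 4.61 in the knockout, with a difference of 0.42 (adjusted p of 0.554 in limma). Teddm3 lay at 3.30, 3.22 and 3.21, with a difference of 0.87 (adjusted p of 0.131 in limma, 0.0491 without wild type 1).

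Aire and its called neighbours stood apart from the knockout as well. Aire was 1.62 higher in the knockdown than in the knockout, Pwp2 1.84, Gatd3a 1.90 and Pfkl 1.84, all past the threshold, and Cfap410 was 1.27 higher (adjusted p of 0.0654 in limma). Of the class II genes called, H2-DMb2 was 2.10 higher in the knockdown than in the knockout (adjusted p of 0.0172 in limma). For H2-DMa the difference was 0.36 and for H2-Oa it was -0.29, and neither passed. H2-DMb2 has a near-identical copy, and which of both genes its probe set reads is uncertain.

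Genes below the threshold in knockdown against wild type fell into different patterns beside the knockout. Krt6b lay at 5.52, 5.27 and 5.41 in the knockout, near its knockdown level, with a difference of -0.16. In knockout against wild type Krt6b passed the threshold, with a change of 0.86 (adjusted p of 0.0246 in limma). Apod lay at 6.24, 6.51 and 6.51 in the knockout, with a difference of -0.05. Chga lay at 6.90, 6.96 and 7.26 in the knockout, as in wild type, with a difference of -1.01 (adjusted p of 0.0896 in limma). Klk1b26 lay at 6.24, 6.24 and 6.65, with a difference of -1.07 (adjusted p of 0.17 in limma). Muc3, with -0.78, and Olfr1136, with -0.89, also stood lower in the knockdown than in the knockout without passing.

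**Figure D5:**
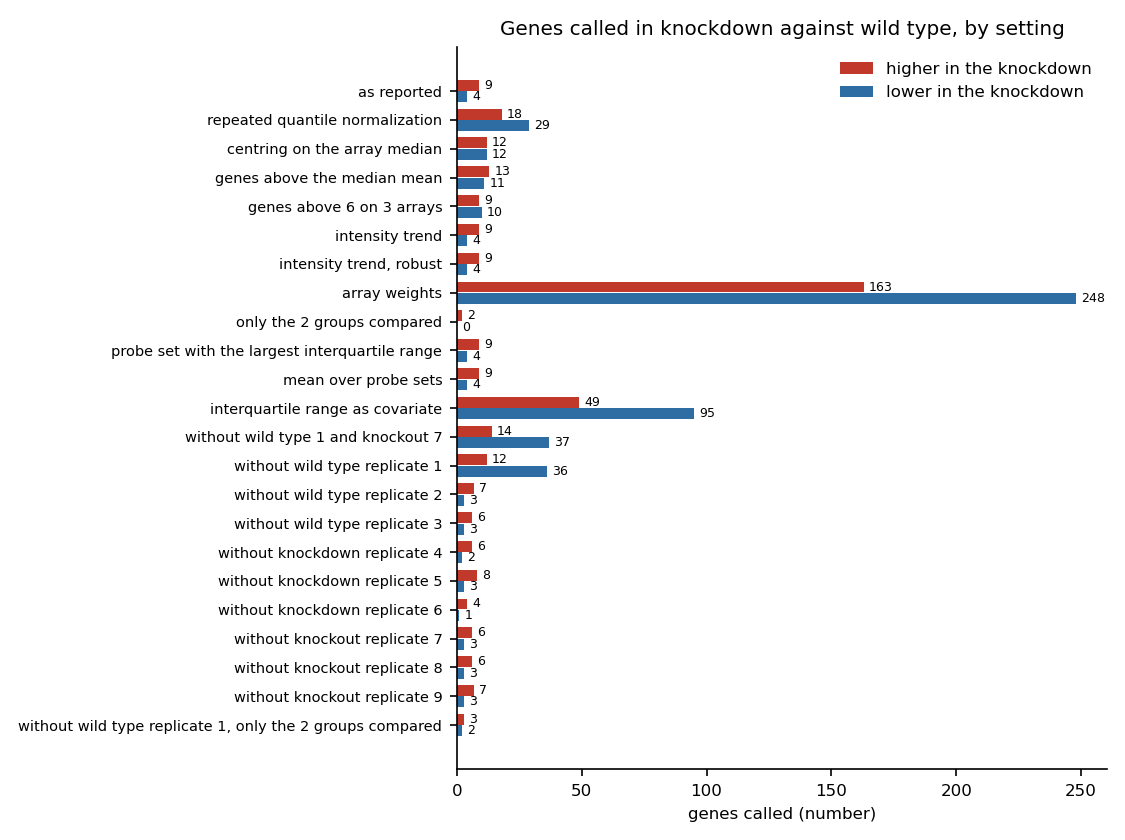
Number of genes called higher and lower in the knockdown under each setting of the fit. Bars start at 0. As reported, 9 genes were higher and 4 lower. Array weights gave 163 and 248, and a fit of only both groups gave 2 and 0.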

How the data were processed

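Arrays measured gene expression in CD80+ medullary thymic epithelial cells, 3 arrays per group. Per the labels' protocols, total RNA carried a biotin label. The authors deposited log2 values, which the submitters' processing notes credit to RMA (software version not given in the sources used here). In a deposited second copy of these log2 values, 319968 of 319968 were identical. The deposited linear intensity values and a deposited q-value score in percent, which names no comparison, were not used.

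Of 35552 probe sets, 21536 have 1 symbol, 0 several and 14016 none. Names follow the RefSeq table of GRCm38.p6, matched through the accession for 15192, the symbol for 3746 and a synonym for 1262 probe sets, while 1336 keep the file's own. Where a gene has several probe sets (938 of 19593 genes), the brightest by mean was kept, and no level filter was set.

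All 9 arrays entered a linear model (limma 3.58.1, R 4.3.3, lmFit and eBayes, 6 residual degrees of freedom) with two-sided contrasts between groups and Benjamini-Hochberg adjustment over all genes at 0.05. With 3 arrays against 3, exact permutation reaches no p below 0.1. In simulated data with 19593 genes, the knockdown comparison recovered 16.4% of genes changed by 0.5, 68.7% by 1 and 98.5% by 2, and called 8 unchanged genes. The simulation gave each gene the same spread on all 9 arrays and held no array that stood apart, unlike wild type 1. Recovery in the real data may therefore differ. The number of arrays limits the precision. RMA gave 525 genes an identical value on the 3 knockdown arrays, which understates their spread. Over all 9 arrays, 12345 of 19593 genes had a value that occurred on more than 1 array. Among them is the called gene Krt79, with 7.53 on knockout 7 and knockout 8. The shared estimate of spread uses all 9 arrays, so such repeats can enter it.

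The members and the 58 gene lists were chosen with earlier results of these data known, and the lists got no test. The patterns for ribosomal proteins and apolipoproteins were narrowed after values were seen, to drop unrelated genes. The text names the called genes, with the exception given at the end of this rule; outside both reference lists the 15 genes per direction with the smallest p and the 5 with the largest change among those without overlap; in each list whose members are described those called or else the 2 with the smallest p; Ciita; and stretches of neighbours and list examples chosen after their values were seen. The exception is that some genes, among them 1 called gene, are included in the counts and not reported here. Alternatives were a repeated quantile normalization, median centring, dim-gene filters (above the median mean, and above 6 on 3 arrays), intensity trends, array weights, only the groups compared, other probe set choices, each array's interquartile range as covariate, and leaving out single arrays or wild type 1 with knockout 7.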

Additional observations from a re-analysis of the deposited data

How the results depend on the processing

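The count of 13 called genes in knockdown against wild type was 47 after a repeated quantile normalization, 24 after median centring, 24 among genes above the median mean, 411 with array weights, 144 with the interquartile range as covariate, 51 without wild type 1 and knockout 7, and 2 with only the groups compared. It ranged from 5 (without knockdown 6) to 48 (without wild type 1) when each array was left out. Fitting only the groups compared and leaving out wild type 1, chosen after seeing the data, gave 5. The 9 higher genes were 18 after the quantile normalization, 163 with weights, 2 with only the groups compared, 49 with the covariate, 14 without both arrays, 3 under the added setting and 4 to 12 without each array. The 4 lower genes were 29, 248, 0 (417 by limma at an unadjusted p under 0.05), 95, 37, 2 and 1 to 36 under the same settings, and 12 after median centring, 11 and 10 under the filters on dim genes. Of the called genes, 6 passed against the knockout, 10 with weights and with the covariate, and 3 to 9 without each array. Changes of Ddx5, Epcam and Krt8, none called, turned their sign. Ddx5 had -0.064 in each setting that leaves out wild type 1 and ranged from -0.064 to 0.41 without each array, Epcam from -0.20 to 0.11 and Krt8 from -0.28 to 0.13. The other named genes kept their direction under every alternative run. The cause of these shifts was not tested. No paired analysis was possible because the groups share no replicate numbers.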
